A study of Rattus norvegicus with 484 samples.

Results

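The question was in which genes retinoic acid acted differently in 2 muscles of the rat, soleus and the muscle that the labels call quad. The retinoic acid effect in a muscle was taken as the treated rats minus the vehicle rats of the same day, and the effect in quad was then subtracted from the effect in soleus. Of 484 arrays in the series, 130 entered. They were 20 soleus and 17 quad arrays of rats given retinoic acid at 25 mkd (the dose unit of the labels), against 32 soleus and 61 quad arrays of rats given vehicle at 0 mkd. The rats were sampled on days 2 to 6, with 4 treated soleus arrays and 2 to 4 treated quad arrays on each day, against 3 to 10 vehicle soleus arrays and 8 to 15 vehicle quad arrays. Strain, sex and age were not given in the sources used here. The members were chosen by title, and 6 arrays were left out by number: soleus vehicle rats 1022, 1034 and 1061, quad vehicle rats 1042 and 1068, and quad retinoic acid rat 1321.

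Retinoic acid is the hormone-like product of vitamin A. It binds nuclear retinoic acid receptors, which sit on DNA with retinoid X receptors and turn on target genes, among them the cytochromes that break retinoic acid down again. Cells also store vitamin A as retinyl esters and make retinoic acid from retinaldehyde, so a dose meets enzymes that feed back on its own level. Soleus is a postural muscle rich in slow oxidative fibres, and the quadriceps of the rat holds mostly fast fibres.

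Each value is the log2 ratio of 1 rat's RNA to pooled RNA of that day's vehicle rats from the same muscle, so 1 unit is a doubling. Because the pool came from the same muscle, the ratio cancels the level of a gene in that muscle, and the labelled muscle could not be checked by its fibre genes. Treatment was visible in both muscles: Cyp26b1, which breaks down retinoic acid, lay above the same-day vehicle mean on 20 of 20 treated soleus arrays and 17 of 17 treated quad arrays. The quad array of retinoic acid rat 1316 stood apart. Its Cyp26b1 value was 0.47 (1.61 to 4.91 on the other treated quad arrays), although the soleus array of that rat read 4.30. Rat 1328 was low in both muscles, at 2.19 in soleus and 1.61 in quad. Calls that were lost without rat 1316 are given with the value without it.

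Over all arrays few features passed a test of the difference between the muscles. The test was a limma fit over the 130 arrays that treated the soleus and quad arrays of 1 rat as independent. It covered 18333 features (genes, or probes that name no single gene), and 19 of them, 0.104%, passed a Benjamini-Hochberg adjusted p of 0.05. The effect was higher in soleus for 14 (0.0764%) and lower for 5 (0.0273%). At an unadjusted p below 0.05 there were 1359 features, 7.41% of those tested. The 19 were 10 named genes, Runx1, Junb, Ngfr, Sds, Plekha3, Hdac2, Lrat, Tspan8, Ddit4l and Aldh1a2, and 9 probes without a gene name, whose differences lay between -0.66 and 0.73. Each of the 19 had 1 sign on at least 4 of the 5 days. The count rested on day 4: without it 0 features passed, with 803 at an unadjusted p below 0.05. It was 10 without the quad array of rat 1316, 4 without that of retinoic acid rat 1310 or 1312, 45 without the soleus array of vehicle rat 1064 and 5 with the 6 left-out arrays put back.

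Soleus and quad came from the same rats for 17 retinoic acid and 24 vehicle rats, so the same question was asked within rats, with the rat as a block. This limma fit called 238 of 18321 features (1.3%), 170 higher in soleus (0.928%) and 68 lower (0.371%). It shared 18 of the 19 features called over all arrays, and all 238 had the same sign there. Lrat was the 1 that missed, with an adjusted p of 0.05374. Without rat 1316 the within-rat count was 175. It was 0 without day 4 (1804 at an unadjusted p below 0.05), 28 without day 6 and 12 with all 6 left-out arrays put back.

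Taken muscle by muscle in the all-array fit, retinoic acid changed 995 features in soleus (5.43%; 511 rose, 2.79%, and 484 fell, 2.64%) and 331 in quad (1.81%; 107 rose, 0.584%, and 224 fell, 1.22%). With 1 variance estimated per muscle the counts were 742 in soleus and 462 in quad, and with the 6 left-out arrays put back they were 626 in soleus and 192 in quad. In the all-array fit both muscles shared 207 features, 20.8% of the soleus calls and 62.5% of the quad calls, and all 207 had the same direction. Of the 19 features whose difference passed, 18 were called in soleus and 4 in quad, and 3 of them were called in both. In 11 of the 19 the fitted effects had opposite signs in soleus and quad. None of these 11 was called in both muscles, so opposite action is not shown. Of the 238 features called within rats, 126 were called in soleus and 22 in quad. A feature called in 1 muscle alone is not shown to differ between muscles unless its difference passed.

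**Figure D1:**
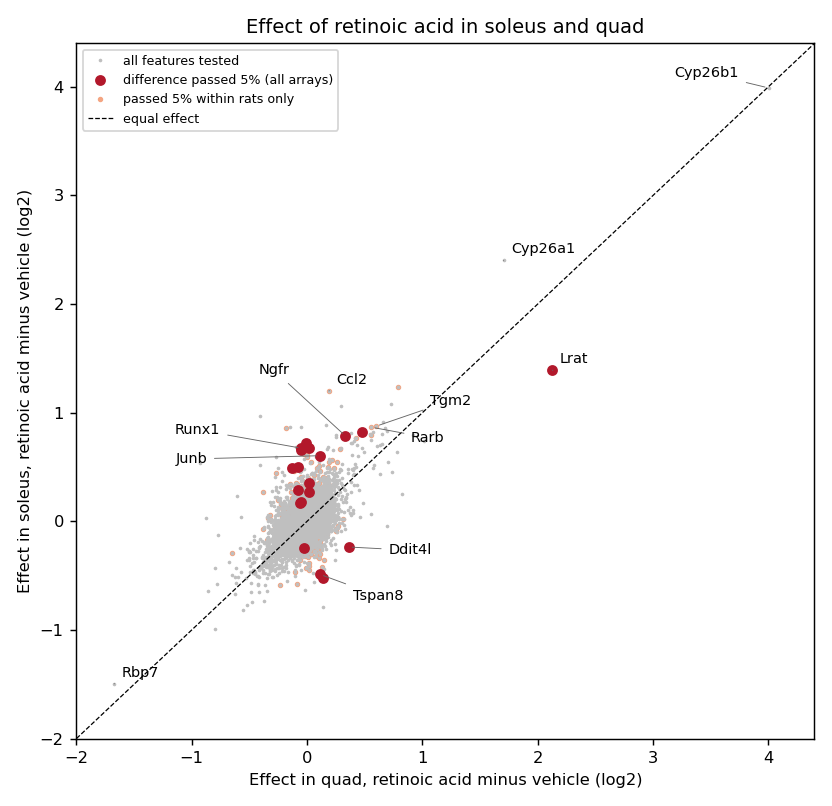
Effect of retinoic acid in soleus (y axis, log2) against the effect in quad (x axis, log2) for all 18333 features tested, each a point. Dark red points are the 19 whose difference passed over all arrays, light red points passed within rats only, and the dashed line marks equal effects. Cyp26b1 lies on the line at the upper right, Lrat lies below it, and most red points sit above it near a quad effect of 0.

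The genes that remove retinoic acid answered in both muscles. Cyp26b1 read 2.19, 4.07 and 4.69 (lowest, median, highest) on the treated soleus arrays, against -0.36, -0.05 and 0.48 on the vehicle soleus arrays. In quad it read 0.47, 4.27 and 4.91 on the treated arrays, against -0.90, -0.01 and 0.71 on the vehicle arrays. Treated and vehicle soleus did not overlap, and in quad the array of rat 1316 alone fell inside the vehicle range. The fitted effect was 3.99 ± 0.14 in soleus and 4.00 ± 0.14 in quad (± is the standard error of the fit throughout). Their difference of -0.01 ± 0.20 did not pass (95% interval -0.40 to 0.38, limma adjusted p = 0.9945), and it was -0.19 ± 0.16 without the quad array of rat 1316. The 2 probes of Cyp26b1 pointed in opposite directions, at -0.53 and 0.50.

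Cyp26a1, the sister enzyme, read 0.92, 2.35 and 4.37 on the treated soleus arrays, against -0.85, -0.05 and 1.36 on the vehicle soleus arrays. The quad values were -0.08, 1.37 and 3.67 on the treated arrays, against -0.77, -0.06 and 1.92 on the vehicle arrays. The groups overlapped in each muscle. It rose by 2.40 ± 0.16 in soleus and 1.70 ± 0.15 in quad, and the difference of 0.70 ± 0.22 did not pass over all arrays (adjusted p = 0.2807) or within rats (0.79 ± 0.22, adjusted p = 0.06104). On single days the difference ran between -0.49 on day 2 and 1.99 on day 3. The 4 treated quad arrays of day 3 include that of rat 1316, which read -0.08. Over the 5 days the difference was 0.62 ± 0.22 without that array, and 0.69 ± 0.20 within rats without that rat. Neither passed.

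Lrat, the enzyme that esterifies retinol for storage, rose in both muscles and less in soleus. It read 0.33, 1.64 and 2.28 on the treated soleus arrays, against -0.44, 0.07 and 0.56 on the vehicle soleus arrays. On the quad arrays it read 0.08, 2.17 and 3.16 on the treated arrays, against -0.47, 0.08 and 0.55 on the vehicle arrays. The rise was 1.39 ± 0.11 in soleus and 2.13 ± 0.11 in quad. The difference of -0.74 ± 0.16 passed over all arrays (limma adjusted p = 0.0193). In 16 of 17 rats the value was lower in soleus, relative to the vehicle mean of that day. Within rats it was -0.60 ± 0.16 and did not pass (adjusted p = 0.05374). Over all arrays it was -0.85 ± 0.14 without the quad array of rat 1316 (limma adjusted p = 0.0003118). Within rats it was -0.72 ± 0.11 without that rat (limma adjusted p = 0.00206).

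The promoters of these genes were compared because retinoic acid receptors bind a direct repeat with a spacer of 5 bases, called DR5. RefSeq windows of the rat build GRCr8, from 250 bases before to 50 bases after each gene's start, were searched on both strands. DR5 was in 103 of 27457 windows (0.375%) and in 2 of the 41 windows that matched the 48 genes named here, those of Cyp26a1 and Rarb. Both belong to the set of retinoid genes named whatever their result, so the 2 shares cannot be compared. None of the genes called over all arrays that had a window held a DR5. The search therefore does not bear on soleus against quad. The shorter-spaced repeats DR2 and DR1 were in 44 (0.16%) and 69 (0.251%) of all windows and in 0 of the 41. Both DR5 holders are printed with Lrat and Runx1, the largest called differences in each direction among named genes, in which none of these letters were found. Capitals mark the DR5, which begins at -92 relative to the start in Cyp26a1 and at 24 in Rarb.
Cyp26a1 (chr1:244883572-244883871, plus strand): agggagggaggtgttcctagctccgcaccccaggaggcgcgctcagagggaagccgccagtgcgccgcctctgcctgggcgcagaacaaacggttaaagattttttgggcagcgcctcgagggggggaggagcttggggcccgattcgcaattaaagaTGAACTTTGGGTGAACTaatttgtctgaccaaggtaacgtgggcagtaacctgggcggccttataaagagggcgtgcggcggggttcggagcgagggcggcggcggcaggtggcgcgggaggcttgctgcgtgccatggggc
Rarb (chr15:11336142-11336441, plus strand): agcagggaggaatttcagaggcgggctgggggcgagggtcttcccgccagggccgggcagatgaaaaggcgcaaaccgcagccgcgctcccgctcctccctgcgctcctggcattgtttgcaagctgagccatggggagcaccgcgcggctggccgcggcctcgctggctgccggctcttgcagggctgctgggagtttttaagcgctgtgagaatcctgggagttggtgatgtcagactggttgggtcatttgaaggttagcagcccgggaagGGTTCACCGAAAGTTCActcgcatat
Lrat (chr2:170571163-170571462, minus strand): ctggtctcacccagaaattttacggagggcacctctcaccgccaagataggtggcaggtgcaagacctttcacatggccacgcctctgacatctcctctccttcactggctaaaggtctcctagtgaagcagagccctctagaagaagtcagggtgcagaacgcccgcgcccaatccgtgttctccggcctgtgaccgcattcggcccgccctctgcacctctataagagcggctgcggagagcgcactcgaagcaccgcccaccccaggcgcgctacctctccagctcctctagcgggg
Runx1 (chr11:45421276-45421575, minus strand): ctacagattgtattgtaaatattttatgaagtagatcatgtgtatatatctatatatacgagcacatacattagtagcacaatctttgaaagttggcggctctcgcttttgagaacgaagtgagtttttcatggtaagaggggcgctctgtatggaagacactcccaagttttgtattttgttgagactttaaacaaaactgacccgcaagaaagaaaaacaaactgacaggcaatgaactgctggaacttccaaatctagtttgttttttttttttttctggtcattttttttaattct

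Aldh1a2, which makes retinoic acid from retinaldehyde, fell in soleus. It read -0.41, -0.23 and 0.12 on the treated soleus arrays, against -0.20, 0.08 and 0.34 on the vehicle soleus arrays. Quad gave -0.14, -0.04 and 0.07 on the treated arrays, against -0.23, -0.01 and 0.25 on the vehicle arrays. The soleus groups overlapped in part, and the treated quad arrays lay inside the vehicle range. The effect was -0.24 ± 0.03 in soleus (adjusted p = 2.804e-09) and -0.03 ± 0.03 in quad (adjusted p = 0.8457). The difference of -0.21 ± 0.04 passed (limma adjusted p = 0.01857), as it did within rats (-0.21 ± 0.05, adjusted p = 0.03758), and 17 of 17 rats pointed the same way. The within-rat call was lost in 12 of 41 fits that left out 1 rat.

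Rbp7, a retinol-binding protein of the cytosol, fell in both muscles. It read -2.52, -1.74 and 0.28 on the treated soleus arrays, against -0.99, -0.03 and 1.90 on the vehicle soleus arrays. Its quad values were -2.77, -1.93 and 0.42 on the treated arrays, against -1.21, -0.08 and 1.62 on the vehicle arrays. The falls were -1.50 ± 0.18 in soleus and -1.67 ± 0.18 in quad, and the difference of 0.18 ± 0.25 did not pass (interval -0.33 to 0.68). The highest treated quad value was that of rat 1325, whose 9 adipocyte markers averaged 1.15, also the highest of the treated quad arrays. The part of the markers in that value was not tested. Crabp2, which carries retinoic acid to its receptors, and Stra6, the membrane receptor for retinol, rose in soleus by 0.38 ± 0.08 and 0.33 ± 0.07. In quad their effects of 0.04 ± 0.07 and 0.13 ± 0.07 did not pass, and neither did their differences of 0.33 ± 0.11 and 0.20 ± 0.10.

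Of 15 measured genes of retinoid uptake, binding and metabolism, 0 had a higher and 2 (Lrat and Aldh1a2) a lower effect in soleus, against 14 and 5 of 18333 over all features. The median difference of the 15 was 0.09, against -0.01 over all features. In soleus 5 of the 15 rose and 2 fell, against 2.79% and 2.64% of all features. In quad 3 rose and 1 fell, against 0.584% and 1.22% of all features.

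**Figure D2:**
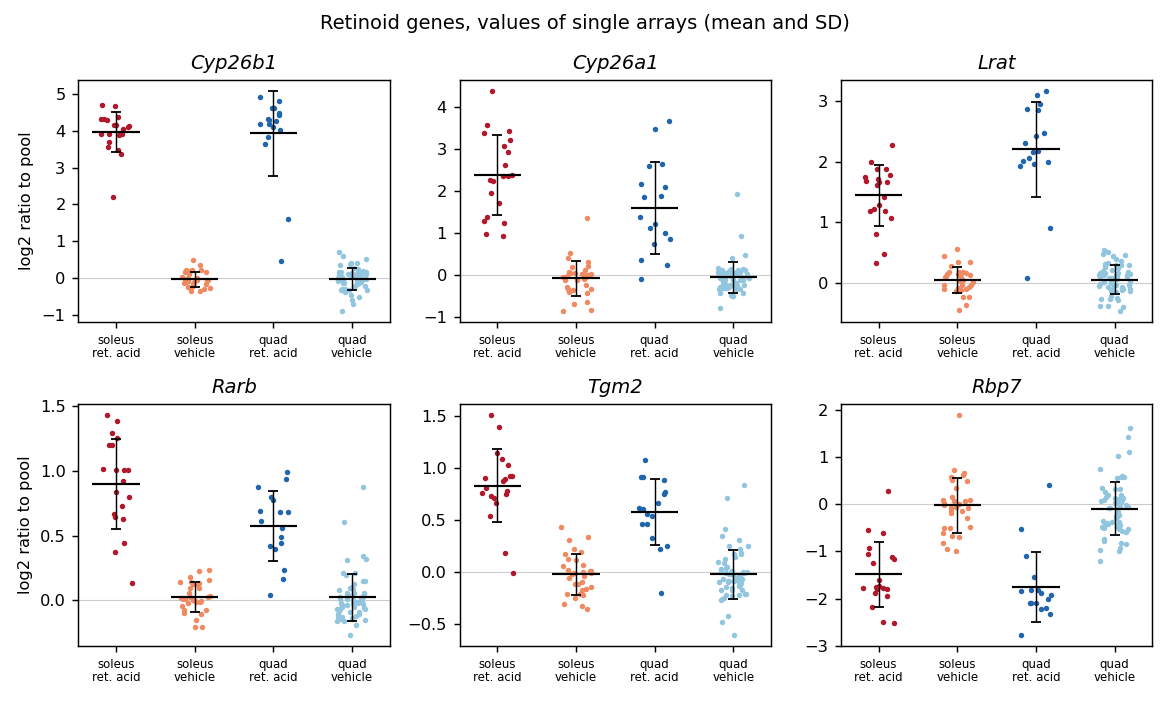
Log2 ratio to the vehicle pool (y axis) of 6 retinoid genes on single arrays, in treated and vehicle soleus and in treated and vehicle quad. Points are arrays, horizontal bars are means and vertical bars are SD. Lrat sits lower in treated soleus (median 1.64) than in treated quad (median 2.17), and the single low quad point of Cyp26b1 at 0.47 is rat 1316.

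Among the receptors, Rarb, the receptor gene that retinoic acid itself turns on, read 0.14, 0.97 and 1.44 on the treated soleus arrays, against -0.21, 0.01 and 0.24 on the vehicle soleus arrays. In quad it read 0.04, 0.61 and 0.99 on the treated arrays, against -0.27, -0.02 and 0.88 on the vehicle arrays. It lay above the same-day vehicle mean on 20 of 20 treated soleus and 17 of 17 treated quad arrays. The rise was 0.87 ± 0.06 in soleus and 0.56 ± 0.06 in quad. The difference of 0.31 ± 0.09 did not pass over all arrays (adjusted p = 0.1602), and it passed within rats (0.29 ± 0.06, adjusted p = 0.01229). Its promoter is one of those printed above.

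Tgm2, a transglutaminase long used as a marker of retinoic acid action, rose by 0.88 ± 0.08 in soleus and 0.60 ± 0.07 in quad. Its difference of 0.28 ± 0.11 did not pass over all arrays (adjusted p = 0.4692). Within rats it was 0.30 ± 0.08 and passed (adjusted p = 0.04588), but the call was lost in 30 of 41 fits that left out 1 rat, among them the fit without rat 1316 (0.28 ± 0.08, adjusted p = 0.07374). Rara, the broadly expressed receptor, had effects of 0.13 ± 0.07 in soleus and -0.10 ± 0.06 in quad that did not pass, and a difference that passed within rats only (0.30 ± 0.07, adjusted p = 0.01519). Rarg, another receptor gene, rose by 0.40 ± 0.07 in soleus and 0.30 ± 0.07 in quad, with a difference of 0.10 ± 0.10. Of 17 measured receptors and classic targets, 0 passed over all arrays in either direction. Within rats 4 were higher in soleus (Rarb, Tgm2, Rara and Egr1) and 0 were lower, against 170 and 68 over all features.

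Runx1, a transcription factor that rises in denervated muscle, had the largest positive difference of the named genes called over all arrays. It read -1.04, 0.36 and 2.19 on the treated soleus arrays, against -0.94, -0.28 and 0.84 on the vehicle soleus arrays. The quad values were -0.53, -0.03 and 0.34 on the treated arrays, against -0.50, -0.02 and 0.75 on the vehicle arrays. All 4 groups overlapped. The effect was 0.67 ± 0.11 in soleus and -0.05 ± 0.11 in quad. The difference of 0.72 ± 0.16 passed (limma adjusted p = 0.0193), with 16 of 17 rats in that direction, and within rats it was 0.85 ± 0.14 (adjusted p = 0.002922). The highest treated soleus arrays were those of rats 1317 (2.19) and 1322 (1.84). Without the soleus array of rat 1317 the difference was 0.65 and did not pass (adjusted p = 0.05972). Without that of rat 1322 it was 0.63 (adjusted p = 0.04891).

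Junb, a subunit of the AP-1 transcription factor, read -0.19, 0.43 and 1.86 on the treated soleus arrays, against -0.57, -0.10 and 0.82 on the vehicle soleus arrays. On the quad arrays it read -0.23, 0.09 and 0.48 on the treated arrays, against -0.46, -0.05 and 0.50 on the vehicle arrays. The effect was 0.60 ± 0.08 in soleus and 0.11 ± 0.08 in quad. The difference of 0.49 ± 0.11 passed narrowly (limma adjusted p = 0.04144). It was lost in 33 of 69 fits that left out 1 treated or soleus vehicle array. Within rats it was 0.60 ± 0.11 (adjusted p = 0.00454) and passed in all 41 fits that left out 1 rat. The highest soleus values, 1.86 and 1.70, were again those of rats 1322 and 1317.

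Ngfr, the low-affinity receptor for neurotrophins, rose in both muscles and more in soleus. It read -0.07, 0.89 and 1.51 on the treated soleus arrays, against -0.34, 0.04 and 0.59 on the vehicle soleus arrays. Quad gave -0.20, 0.41 and 0.87 on the treated arrays, against -0.23, 0.02 and 0.31 on the vehicle arrays. The rise was 0.79 ± 0.07 in soleus and 0.33 ± 0.07 in quad. The difference of 0.46 ± 0.10 passed (limma adjusted p = 0.03327), and within rats it was 0.52 ± 0.08 (adjusted p = 0.001502). Without the quad array of rat 1316 it was 0.44 and missed (adjusted p = 0.05695). Markers of nerve and Schwann cells, 8 of 10 measured, had 0 calls in soleus, in quad and in the difference. Their mean per array had a median of -0.09 in treated soleus, against 0.03 in vehicle soleus, and of -0.17 in treated quad, against -0.02 in vehicle quad.

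Of 14 measured genes of muscle development, denervation and regeneration, Runx1 was the 1 whose effect was higher in soleus and 0 were lower, over all arrays and within rats alike. Of all features 0.0764% were higher and 0.0273% lower over all arrays, and 0.928% and 0.371% within rats. The median difference was 0.20 in the list, against -0.01 over all features. Ncam1, a cell adhesion molecule that denervated fibres put on their surface, rose in both muscles, by 0.72 ± 0.07 in soleus and 0.39 ± 0.07 in quad, and its difference of 0.33 ± 0.10 did not pass (adjusted p = 0.2492). The acetylcholine receptor subunit genes Chrna1 and Chrng gave differences of -0.03 ± 0.32 and 0.05 ± 0.08, which did not pass.

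Tspan8, a membrane protein of the tetraspanin family, went the other way. It read -1.12, -0.52 and 0.53 on the treated soleus arrays, against -0.78, -0.03 and 0.97 on the vehicle soleus arrays. Its quad values were -0.71, 0.16 and 0.63 on the treated arrays, against -0.89, 0.00 and 0.43 on the vehicle arrays. It fell by 0.49 in soleus, and the quad effect of 0.11 ± 0.09 did not pass. The difference of -0.60 ± 0.13 passed (limma adjusted p = 0.0193), and within rats it was -0.62 ± 0.15 (adjusted p = 0.02767).

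Ddit4l, an inhibitor of mTOR signalling, read -1.10, -0.24 and 0.47 on the treated soleus arrays, against -0.90, 0.04 and 0.76 on the vehicle soleus arrays. In quad it read -0.48, 0.40 and 1.28 on the treated arrays, against -0.89, -0.05 and 0.59 on the vehicle arrays. It rose in quad by 0.36 ± 0.10 (adjusted p = 0.02397), while the soleus effect of -0.24 ± 0.10 did not pass (adjusted p = 0.1821). The difference of -0.60 ± 0.14 passed narrowly (limma adjusted p = 0.04461). It was lost in 41 of 69 fits that left out 1 treated or soleus vehicle array. Within rats it was -0.78 ± 0.13 (adjusted p = 0.003847) and passed in all 41 fits that left out 1 rat.

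The other named genes had small differences. Plekha3, which binds a membrane phospholipid of the Golgi, had a difference of 0.23 ± 0.05 (limma adjusted p = 0.0193). Hdac2, a histone deacetylase, also had 0.23 ± 0.05 (adjusted p = 0.03686), and for both genes 17 of 17 rats pointed that way. Sds, which breaks down serine, had 0.25 ± 0.06 (adjusted p = 0.03909), but its 2 probes disagreed, at -0.10 and 0.61, and its call within rats was lost without rat 1316 (0.31 ± 0.08, adjusted p = 0.05673). Without the quad array of rat 1316 Junb, Hdac2, Sds and Ddit4l did not pass either, with adjusted p of 0.06387, 0.05464, 0.05695 and 0.05114.

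**Figure D3:**
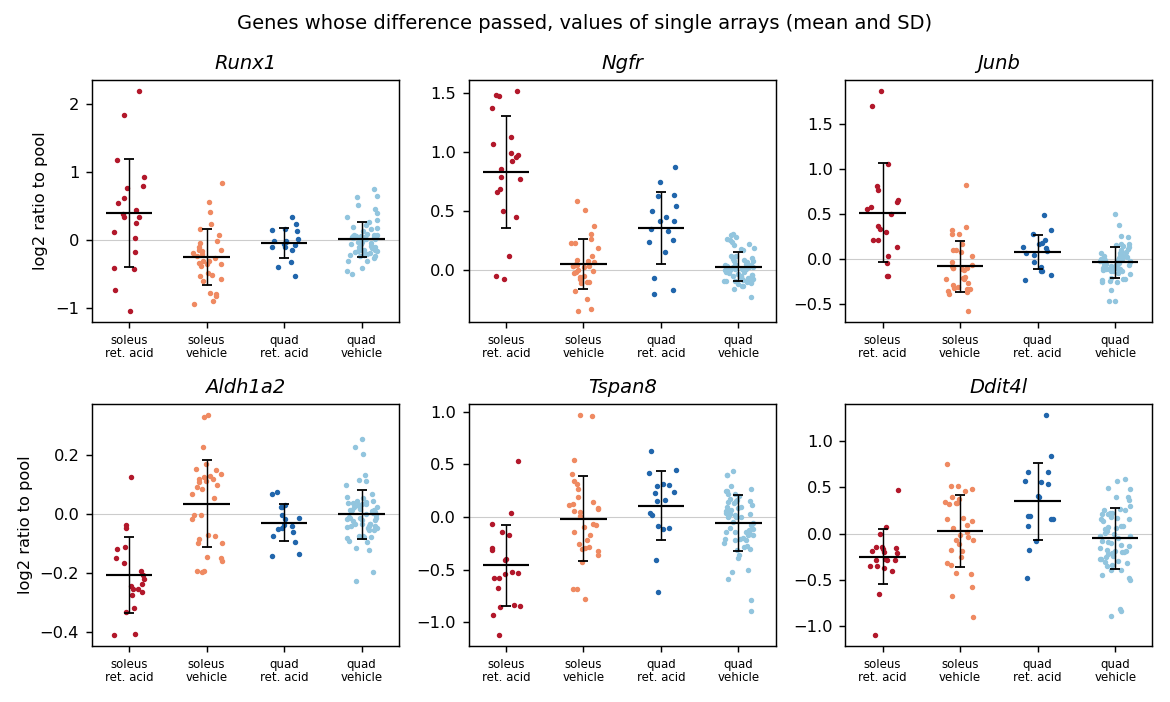
Log2 ratio to the vehicle pool (y axis) of 6 genes whose difference passed over all arrays, in treated and vehicle soleus and in treated and vehicle quad. Points are arrays, horizontal bars are means and vertical bars are SD. The treated soleus column is shifted up for Runx1, Ngfr and Junb and down for Aldh1a2 and Tspan8, with overlap between groups in each panel.

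Within rats a group of inflammatory signal genes passed that did not pass over all arrays. Soleus minus quad of 1 rat for Ccl2, a chemokine that attracts monocytes, was -2.31, 1.06 and 3.04 (lowest, median, highest) in 17 retinoic acid rats, against -1.25, -0.21 and 0.91 in 24 vehicle rats. For Ccl7, a related chemokine, it was -2.12, 0.82 and 3.74 in retinoic acid rats, against -1.56, -0.06 and 0.88 in vehicle rats. The treated rats spread beyond the vehicle range on both sides for each gene. The within-rat differences were 1.24 ± 0.23 for Ccl2 (limma adjusted p = 0.005361) and 1.29 ± 0.24 for Ccl7 (adjusted p = 0.00529), and neither call was lost in any of the 41 fits that left out 1 rat. Over all arrays they were 1.01 ± 0.30 and 1.04 ± 0.28 and did not pass, with adjusted p of 0.1944 and 0.1195. On day 3 they were -0.32 ± 0.61 and -0.30 ± 0.57, and on the other days both were positive. Both within-rat calls were lost without day 4, when 0 features passed.

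Cxcl1, which attracts neutrophils, gave -0.30, 0.38 and 2.75 in retinoic acid rats, against -2.25, -0.06 and 0.39 in vehicle rats, a within-rat difference of 0.82 ± 0.19 (adjusted p = 0.0218). Vcam1, the endothelial adhesion molecule for leukocytes, gave -0.03, 0.36 and 0.77 in retinoic acid rats, against -0.54, -0.04 and 0.54 in vehicle rats. Its within-rat difference was 0.40 ± 0.09 (adjusted p = 0.01908), and 17 of 17 retinoic acid rats lay above the vehicle mean of their day. Cxcl10, a chemokine induced by interferon, had 0.70 ± 0.17 (adjusted p = 0.03254), but the call was lost without rat 1316 (0.66, adjusted p = 0.05044) and in 8 of 41 fits that left out 1 rat. These 5 of 23 measured chemokine and cytokine signalling genes were higher within rats and 0 were lower, against 0.928% and 0.371% of all features. Without rat 1316 the other 4 passed. In soleus Ccl2, Ccl7, Cxcl1, Il6 and Vcam1 rose and Ccl21 fell, and in quad 0 of the 23 passed.

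The mean of the 23 genes per array was highest among treated soleus arrays in rat 1322 (0.95), as was the mean of 17 macrophage and leukocyte markers (0.18). Those markers gave 0 calls in the difference, over all arrays and within rats. Their medians were -0.20 in treated soleus, against 0.00 in vehicle soleus, and -0.20 in treated quad, against 0.01 in vehicle quad. In soleus Csf1r, Mrc1, Cd74 and Ctss, all macrophage or antigen-presenting genes, fell, and in quad Mrc1, Cd74 and Lyz2 fell. In whole muscle, fewer cells of a type and less RNA per cell cannot be told apart.

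Other genes with a higher effect in soleus within rats only included Egr1, an immediate early transcription factor (0.75 ± 0.18, adjusted p = 0.02763). Sik1, a kinase induced by cAMP, had 0.69 ± 0.15 (adjusted p = 0.01443). Ch25h, which makes an oxysterol from cholesterol, had 0.54 ± 0.09 (adjusted p = 0.003948) and kept its call in all 41 fits that left out 1 rat. Timp1, an inhibitor of matrix metalloproteinases, had 0.53 ± 0.12 (adjusted p = 0.01831). Fam110a (0.89 ± 0.18) and Tmem100 (0.77 ± 0.19) also passed, but the call of Tmem100 was lost without rat 1316 (adjusted p = 0.05044) and in 10 of 41 fits that left out 1 rat. Taken muscle by muscle, Egr1, Sik1, Timp1 and Tmem100 passed in neither muscle. Sik1 had effects of 0.27 ± 0.13 in soleus and -0.38 ± 0.13 in quad, and Timp1 had 0.16 ± 0.09 and -0.22 ± 0.09. Ch25h and Fam110a rose in soleus, by 0.35 ± 0.10 and 0.59 ± 0.12. Of 16 immediate early genes, Junb and Egr1 were higher within rats and 0 were lower, against 0.928% and 0.371% of all features. Fos, the partner of Junb in AP-1, rose in soleus by 0.66 ± 0.15, but its within-rat difference of 0.66 ± 0.20 did not pass (adjusted p = 0.09993).

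Ehhadh, an enzyme of peroxisomal beta-oxidation, was among the named genes with a lower effect in soleus within rats. It gave -1.20, -0.66 and 0.27 in retinoic acid rats, against -0.88, 0.09 and 0.93 in vehicle rats. Its within-rat difference was -0.63 ± 0.14 (limma adjusted p = 0.01456), and over all arrays -0.55 ± 0.16 did not pass (adjusted p = 0.1624). Abcd2, which carries very long-chain fatty acids into peroxisomes, had -0.40 ± 0.08 (adjusted p = 0.01229), with 17 of 17 rats in that direction. Pfkfb1, which sets the level of an activator of glycolysis, had -0.59 ± 0.14 (adjusted p = 0.0224), and Fdft1, squalene synthase of cholesterol synthesis, had -0.36 ± 0.07 (adjusted p = 0.00454).

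Klf9, a transcription factor induced by glucocorticoid, gave -1.07, -0.28 and 0.28 in retinoic acid rats, against -0.40, 0.08 and 0.78 in vehicle rats, and a within-rat difference of -0.39 ± 0.07 (adjusted p = 0.00454). Dhrs7c, a reductase of the sarcoplasmic reticulum, had -0.46 ± 0.09 (adjusted p = 0.009822), and Fzd4, a Wnt receptor, had -0.46 ± 0.10 (adjusted p = 0.01229). Cyp2j4, Gpcpd1, Pde4a, Map2k6 and Adamtsl2 also passed, between -0.71 and -0.44. Taken muscle by muscle, Fzd4, Cyp2j4 and Gpcpd1 passed in neither muscle. The calls of Gpcpd1, Map2k6, Pde4a and Adamtsl2 were lost in 28, 32, 16 and 7 of 41 fits that left out 1 rat. The fit without rat 1316 was among them for each, with adjusted p of 0.0708, 0.07374, 0.05044 and 0.0516 in the same order. Klf9 was the 1 of 13 glucocorticoid responsive genes and Fdft1 the 1 of 12 cholesterol synthesis genes that passed within rats, both lower, and 0 of either list were higher, against 0.371% and 0.928% of all features.

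**Figure D4:**
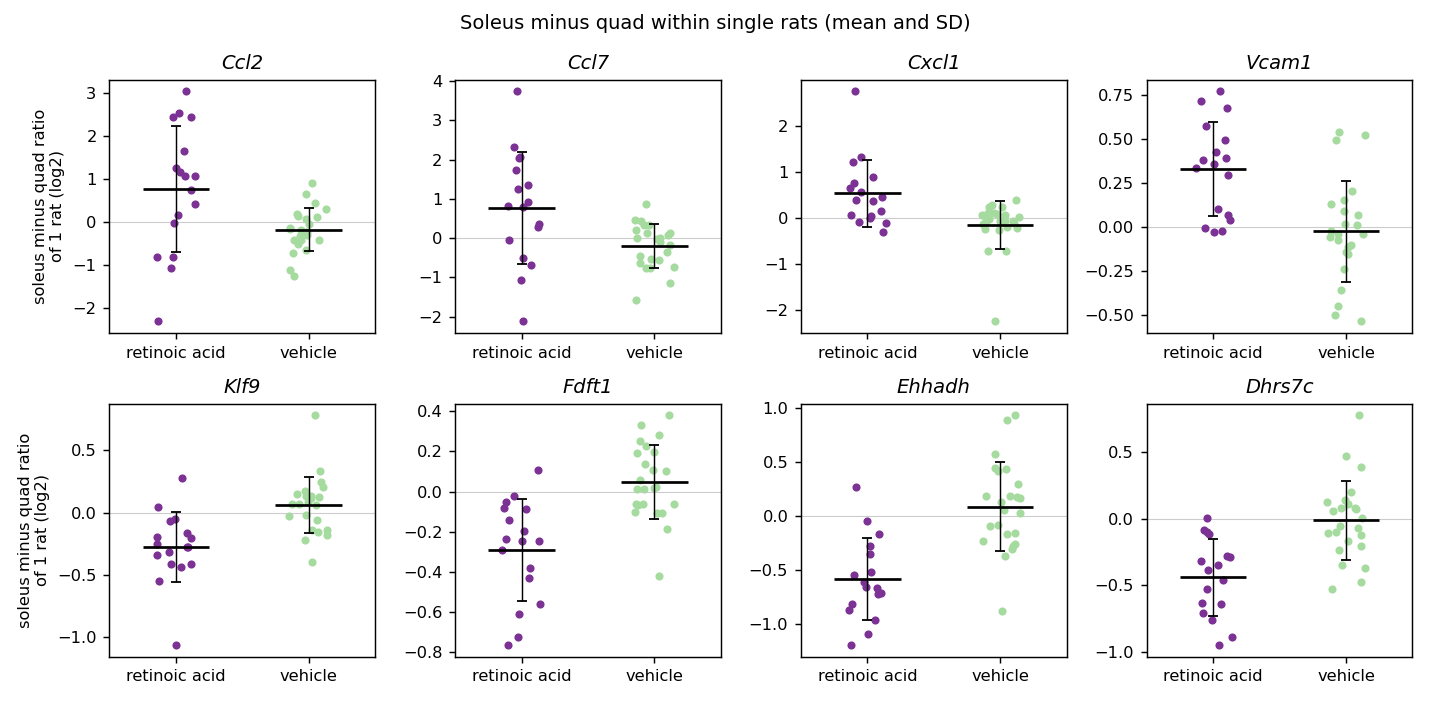
Soleus minus quad log2 ratio of single rats (y axis) for 8 genes called within rats only, in 17 retinoic acid rats and 24 vehicle rats. Points are rats, horizontal bars are means and vertical bars are SD. The retinoic acid rats sit higher for Ccl2, Ccl7, Cxcl1 and Vcam1 and lower for Klf9, Fdft1, Ehhadh and Dhrs7c, with overlap in each panel.

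The difference was followed over days 2 to 6. For Runx1 it was 0.39 ± 0.38 on day 2, 0.30 ± 0.32 on day 3, 1.31 ± 0.31 on day 4, 0.70 ± 0.38 on day 5 and 0.90 ± 0.35 on day 6. For Lrat it was -0.79 ± 0.38, -0.15 ± 0.33, -0.96 ± 0.32, -0.93 ± 0.38 and -0.85 ± 0.35 on the same days. Day 3 includes the quad array of rat 1316, which read 0.08 for Lrat, and its part in the day 3 values was not tested. For Aldh1a2 the difference lay between -0.40 ± 0.09 on day 4 and -0.01 ± 0.10 on day 2. Runx1, Junb, Ngfr, Ddit4l, Lrat and Aldh1a2 had the largest difference in size on day 4, and Tspan8 on day 6 (-1.13 ± 0.29). A linear slope of the difference per day passed for 0 features (limma, 0%), with 874 (4.77%) at an unadjusted p below 0.05.

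**Figure D5:**
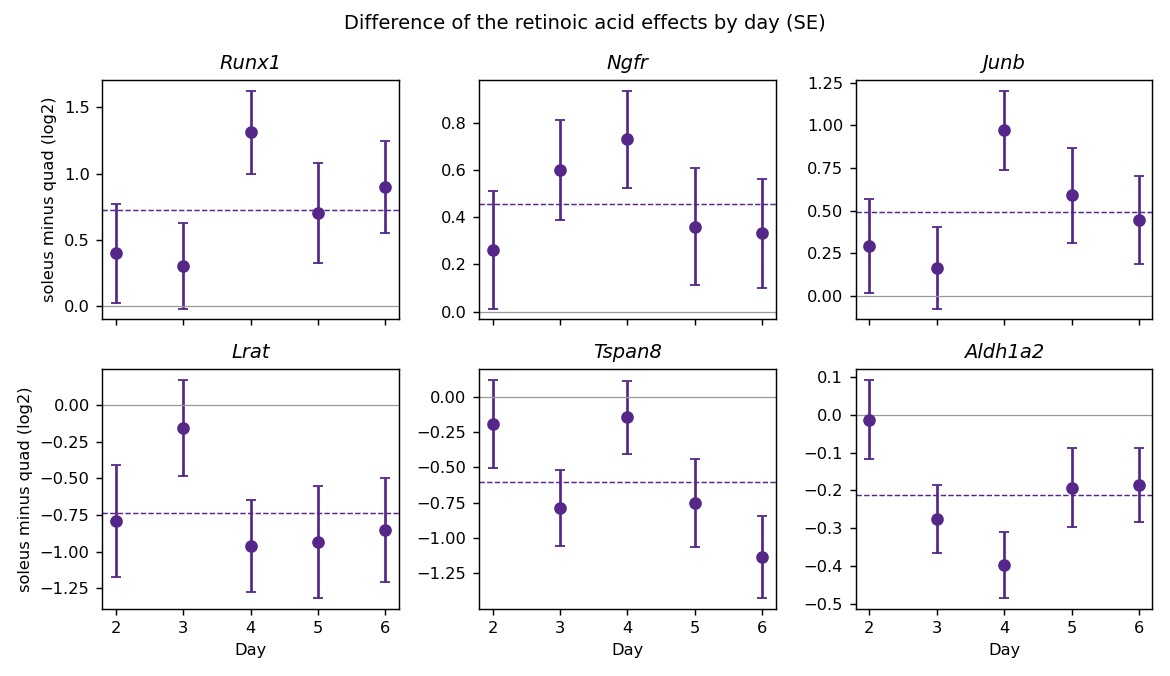
Difference of the retinoic acid effects, soleus minus quad (y axis, log2), on days 2 to 6 for 6 genes. Points are fitted daily differences, bars are SE, the dashed line is the mean over days and the grey line is 0. Every daily point of each gene lies on 1 side of 0, and the day 4 point is the farthest from 0 in all panels but that of Tspan8.

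Several gene lists gave no called difference. Single metabolic genes that passed within rats, among them Fdft1, Ehhadh, Abcd2 and Pfkfb1, are given above. In muscle protein breakdown (15 measured), amino acid stress (18), heat shock (12), mitochondrial beta-oxidation (16), fuel switching (16), oxidative phosphorylation (10), glycolysis and glycogen (16), clock (14), cell cycle (16), interferon (14) and proteasome (20) genes, 0 passed over all arrays or within rats. The medians were -0.16 for glycolysis and glycogen, -0.07 for oxidative phosphorylation, where 0 of 10 lay above 0, and 0.07 for the proteasome, where 19 of 20 did, against 8600 of 18333 over all features. In matrix genes 0 of 23 passed over all arrays and Timp1 alone passed within rats. Slow fibre genes gave 0 of 5 tested, with 11 on the array, and of 12 fast fibre genes on the array 1 had enough values to be tested. The list sizes count genes with enough values. On the array were 20 genes of oxidative phosphorylation, 22 of mitochondrial beta-oxidation and 23 of glycolysis and glycogen.

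The PPAR targets Pdk4, which blocks glucose oxidation, Ucp3, a mitochondrial carrier, Angptl4, a lipase inhibitor, and Acot1, a thioesterase, had differences of -0.16 ± 0.19, -0.20 ± 0.14, 0.20 ± 0.20 and -0.14 ± 0.29. None of them passed over all arrays or within rats. Neither did Trim63, a ubiquitin ligase of wasting muscle (0.11 ± 0.22), Chac1, which degrades glutathione (-0.37 ± 0.26), or Myh7, the slow myosin (0.18 ± 0.14). The value of Myh7 averages probes that were not all measured on the same arrays, and the 1 probe with enough values gave -0.01. The intervals were wide, -0.71 to 0.43 for Acot1. Markers of adipocytes (9 tested), hepatocytes (14), endothelium (12), fibroblasts (8) and red cells (7) gave 0 calls in the difference over all arrays and within rats. The hepatocyte mean per array spread widely in soleus, from -3.09 to 0.83 on treated and -2.86 to 0.90 on vehicle arrays. The lowest were those of rats 1317 and 1048, both of day 4. In quad it ran from -1.14 to 0.73 and from -1.36 to 1.44. The part of this spread in the differences was not tested.

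The same genes were read in liver of rats given 25 mkd, on 15 retinoic acid and 73 vehicle arrays, and in the muscle labelled EDL at 2.5 mkd, on 11 arrays of days 3 to 6 with no single vehicle rats. Lrat rose by 2.5 ± 0.07 in liver and had a median ratio to the pool of 1.02 in EDL, with a range of 0.42 to 1.25. Aldh1a2 had an effect of -0.04 ± 0.02 in liver, which did not pass (adjusted p = 0.2032), and a median of -0.28 in EDL, with all 11 arrays between -0.39 and -0.05. Runx1 had 0.08 ± 0.12 in liver (adjusted p = 0.6501), and its 11 EDL arrays ran between -0.16 and 1.16. Junb rose in liver by 0.83 ± 0.09 and lay between -0.23 and 0.04 in EDL. Cxcl1 rose in liver by 1.78 ± 0.21 and Vcam1 fell there by 0.72, while Ccl2 and Ccl7 did not pass. Dose, days and the missing vehicle rats differ in EDL, so no comparison with the other muscles was made.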

How the data were processed

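RNA of rat soleus, quad and liver and of EDL was measured on 2-colour arrays, with 1 rat in the Cy5 channel and a pool of vehicle rats in the Cy3 channel. The deposited table holds values taken as log10 ratios of rat over pool, limited to -2 and 2. Normalization, log base and direction were not given in the sources used here. The values were multiplied by 3.32 to give log2. If the base were another, all sizes would scale together. Scanner intensities were not used, and precision rests on how many arrays a group had.

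Of 23653 probes, 15260 named 1 gene, 17 several and 8376 none, through the platform table and RefSeq identifiers. Probes of a gene were averaged over those with a value on each array. A feature was tested where 80% or more of each muscle's arrays measured it. limma 3.58.1 in R 4.3.3 fitted 1 mean per muscle, treatment and day, with days weighted equally and Benjamini-Hochberg adjustment at 0.05, two-sided. Dhrs3, Fbxo32 and Myh4 were not tested. The rat numbers in the labels mark the same animal: deviations of soleus and quad arrays from their group means correlated at a median of 0.258 over 41 rats (0.031 to 0.474), with 39 above 0.1, and at -0.034 for other rats of the same treatment and day. The within-rat fit used the 41 rats with both muscles, with the rat as a block.

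The members, gene lists and left-out arrays were chosen with earlier results of these data known. Of the 6 arrays, soleus vehicle 1022 and 1061 and quad vehicle 1068 had a spread 12.8, 3.31 and 3.29 times the median of their muscle. The other 3 had a spread near that median, and the earlier work left them out for another tissue's markers. Named genes were up to 12 of the largest called differences in each direction with 1 sign on at least 4 of 5 days, up to 4 called members of a list, and a set of retinoid, PPAR target and muscle genes. Applying the rule to the within-rat calls was added after the data were seen. In data simulated over 18333 features every array was drawn independently, so soleus and quad arrays of a rat were uncorrelated, unlike those measured. Over all arrays the difference was recovered in 42% of genes at 0.25 log2 units, 85% at 0.5 and 100% at 1. There were 9 false calls over all arrays. Within rats the shares were 34%, 74% and 100%. They do not compare the fits on correlated arrays. Alternatives covered array scaling, weights, missing values, single probes, the left-out arrays, the rat as a block, the samples and reference used, days and single arrays. Python 3.11.15 with pandas 2.3.3 and numpy 2.4.6 prepared the tables, matplotlib 3.10.9 drew the figures, and statmod 1.5.0 served the random block.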

Additional observations from a re-analysis of the deposited data

Results flagged for a closer look

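In 10 named genes the retinoic acid effect differed between soleus and quad by the test of that difference (limma over all arrays, adjusted over all features). The effect was higher in soleus by 0.72 log2 units for Runx1, 0.49 for Junb, 0.46 for Ngfr, 0.25 for Sds, 0.23 for Plekha3 and 0.23 for Hdac2. It was lower in soleus for Lrat (-0.74), Tspan8 (-0.60), Ddit4l (-0.60) and Aldh1a2 (-0.21). The fitted effects of Runx1, Plekha3, Hdac2, Tspan8 and Ddit4l had opposite signs in soleus and quad, and those of the other 5 genes had the same sign. For none of these opposite pairs did both effects pass. The quad effects of Runx1, Plekha3, Hdac2 and Tspan8 and the soleus effect of Ddit4l did not pass, so opposite action is not shown.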

How the results depend on the processing

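Over all arrays 19 features passed. The count was 47 with array quality weights, 5 with all 6 left-out arrays put back, 238 with the rat as a fixed replicate block, 89 with the rat as a random block, 48 without the block on the rats with both muscles, 189 when ratios were not set against vehicle rats (80 higher and 109 lower) and 29 with the other compounds in place of vehicle (15 higher and 14 lower, 8 of the 19 among them). It was 35 without day 2, 6 without day 3, 0 without day 4 and 6 without day 6. Leaving out 1 treated or soleus vehicle array gave 4 to 45, and quad vehicle arrays were not left out singly. It moved by over 1.5 times without quad retinoic acid rats 1312 (4), 1310 (4), 1316 (10), 1324 (10) and 1322 (11), soleus retinoic acid rats 1310 (10), 1316 (10), 1317 (10), 1327 (11), 1321 (36) and 1323 (30), and soleus vehicle rats 1064 (45), 1057 (7), 1072 (7) and 1074 (12). Scaling or centring arrays, 1 variance per muscle, complete values, single probes and all compounds in the fit gave 15 to 28. With all 6 arrays put back, the effect in soleus was called for 626 features in place of 995 and in quad for 192 in place of 331. Within rats 238 passed. That count, by settings chosen after seeing the data, was 0 without day 4, 28 without day 6 and 12 with all 6 arrays put back, and 55 to 474 with 1 rat left out. The rats that moved it by over 1.5 times were retinoic acid rats 1310 (103), 1317 (150), 1319 (153) and 1322 (118) and vehicle rats 1072 (55), 1074 (143) and 1064 (474). The 10 named genes called over all arrays kept their sign in every alternative and lost the call in 4 to 10 of 17 settings. With other compounds in place of vehicle their differences shrank to -0.16 for Tspan8, -0.30 for Ddit4l, 0.12 for Plekha3 and 0.32 for Junb, and against the pool to 0.43 for Runx1, 0.16 for Sds and 0.14 for Hdac2. Signs turned for genes that never passed: Cyp26b1 (0.0541 with quality weights, 0.00564 with all arrays back, 0.000163 within rats and without the block on those rats, 0.0544, 0.073 and 0.109 without days 2, 5 and 6, and -0.194 to 0.0688 with 1 array left out), Rbp7 (-0.00633 with the block and without it on the same rats), Acot1 (0.21 against the pool, 0.0146 and 0.0909 without days 3 and 4), and, with other compounds as reference, Angptl4 (-0.19), Chac1 (0.20) and Myh7 (-0.00238). The causes were not tested. The median standard error of a difference was 0.0753 log2 units, and treated quad had 2 arrays on day 2.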
